A study of Mus musculus with 6 samples.

Results

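Of 6 RNA libraries made from mouse prefrontal cortex (PFC), 4 were compared here: both libraries from P301S Tau mice given UNC0642 and both from P301S Tau mice given vehicle. They were chosen by their labels alone. Every mouse in these 4 libraries carried the PS19 transgene, which expresses human tau with the P301S mutation from the mouse prion promoter, and all were 6 months old. The libraries were bulk lysates of PFC, which the methods describe as biological duplicates. Each p-value below rests on the spread between 2 mice in a group, pooled over all groups including WT and moderated across genes. The other 2 libraries, from WT mice (C57BL/6 x C3H) of the same age given vehicle, entered the fit only to help estimate that spread and to give a reference level. The question of the comparison was which transcripts differ in the PFC of Tau mice after a short course of UNC0642 injections.

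UNC0642 is a small molecule that inhibits EHMT1 (GLP) and EHMT2 (G9a), the paired lysine methyltransferases that place most of the dimethyl mark on lysine 9 of histone H3 (H3K9me2) in euchromatin. This mark is associated with repressed promoters, and its loss can make a gene more accessible to transcription factors that are already present. In cortical neurons the EHMT complex has been tied to silencing of activity-induced and developmental genes.

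The libraries held 17005664 to 28972176 counts, and 3 counts corresponded to 0.107 to 0.178 CPM (counts scaled to an equal library size). Xist and the Y-linked Ddx3y gave the female pattern in both Tau libraries and the male pattern in both UNC0642-treated libraries, while WT replicate 1 was male and WT replicate 2 female. Sex and treatment therefore cannot be told apart in the comparison of treated with untreated Tau mice, and this bears on autosomal genes as well. A term for sex could be added to the fit only from the contrast of the WT mice, 1 animal of each sex, so it also carries whatever else differed between those animals. Tau replicate 2 stood apart by its high level of striatal and oligodendrocyte transcripts, described below. Prnp, whose promoter drives the transgene, measured 1652 and 873 CPM in the WT libraries, 1552 and 1470.3 CPM in Tau and 1548 and 1694 CPM in UNC0642-treated Tau, so WT replicate 1 was at the level of the transgenic mice. The cause was not tested. WT replicate 1 was also the male of the WT mice, so this difference enters the sex term, with which Prnp had a log2 value of -0.82. It also bears on the WT levels used as a reference below.

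Of 20409 genes tested, 19549 lay on chromosomes 1 to 19, and 14179 of these were protein-coding. A gene was called at the threshold of the study, an unadjusted p under 0.05 together with a fold change no smaller than 1.2. After UNC0642, 725 autosomal genes (3.71%) were called higher and 778 (3.98%) lower. Scaled by library size alone, the split was 859 higher and 611 lower. Among protein-coding genes the balance was different, with 280 (1.97%) called higher and 682 (4.81%) lower. These shares are the background for the gene lists below. In all, 1736 autosomal genes had p under 0.05, where 977.45 would have it if no gene differed. When p-values from edgeR's quasi-likelihood test were adjusted by Benjamini-Hochberg over every gene tested, 3 autosomal genes (0.0153%) passed 0.05: Homer1 and Etnppl were higher and Rpl3 was lower. For comparison, 1929 autosomal genes (9.87%) were called in either direction between Tau and WT in the same fit, which uses the same Tau libraries.

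The called protein-coding genes had a median absolute log2 fold change of 0.46, and 147 of them differed by at least 2-fold, 51 higher and 96 lower. Treated and untreated libraries did not overlap for 275 of the 280 higher genes and 667 of the 682 lower genes. Because the genes were called from these same libraries, such separation follows largely from the call and adds no support to it. The share over all tested genes is not given here. These calls depended on single libraries. Without Tau replicate 1, 142 of the 280 and 336 of the 682 kept their call, and without Tau replicate 2, 144 and 405 did. Without UNC0642 replicate 1 the numbers were 153 and 383, and without UNC0642 replicate 2 they were 124 and 292. With the sex term, 93 of the higher and 191 of the lower genes kept their call, and 269 and 653 kept their direction. A call lost with this term need not mean a smaller difference. Some such genes kept a large log2 value, as did Uhrf1 (-2.26), and others came near 0, as did Vamp2 (-0.05).

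**Figure D1:**
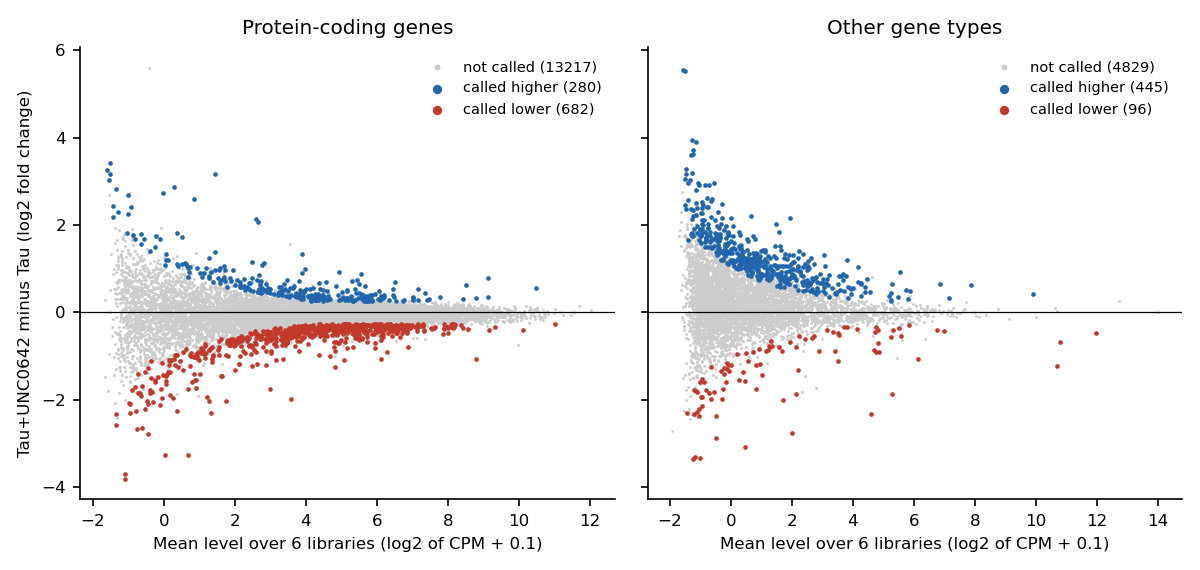
Log2 fold change of UNC0642-treated over untreated Tau libraries (y axis) against the mean level over all 6 libraries (x axis, log2 of CPM + 0.1), for protein-coding genes and for other gene types on chromosomes 1 to 19. Grey points were not called, blue points were called higher and red points lower. Lower calls outnumber higher calls among protein-coding genes (682 against 280) and higher calls outnumber lower calls among the other types (445 against 96).

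Genes induced by neuronal activity were among the clearest increases. Homer1, whose short activity-induced form loosens the scaffold of the postsynaptic density, measured 479 and 483 CPM in the Tau libraries and 803 and 868 CPM in the treated libraries, against 360.4 and 377 CPM in WT. Both treated libraries lay far above all 4 others. The log2 fold change was 0.80 ± 0.07 (± SE here and below, n = 2 against 2), with an adjusted p of 0.00573 by edgeR's quasi-likelihood test, and it was 0.86 with the sex term. Arc, an effector of synaptic plasticity that travels to active synapses, measured 333 and 369.7 CPM in Tau and 536 and 553 CPM after UNC0642 (log2 fold change 0.63 ± 0.12). Its level was 231 and 175 CPM in WT, below both other groups, and its call was lost with the sex term (log2 0.24).

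Some transcription factors of the immediate early class were also higher. Fosl2, a partner of Jun in the AP-1 complex, measured 42.6 and 39.1 CPM in Tau and 62.3 and 65.7 CPM after UNC0642 (log2 0.65 ± 0.10). Egr2, a zinc finger factor induced by synaptic input, measured 13.3 and 13.5 CPM in Tau and 28.2 and 24.7 CPM after UNC0642 (log2 0.98 ± 0.20). The treated libraries were the highest of the 6 for both genes. The 22 immediate early factors tested had a median log2 fold change of 0.39, beside -0.02 for all protein-coding genes. Of them 8 were called higher (36.4%) and none lower, beside 1.97% and 4.81% of all protein-coding genes. The other 6 were Fosb (log2 0.72 ± 0.21), Egr3 (0.37 ± 0.11), Fos, Junb, Btg2 and Nfil3, the last 4 named after their values were seen. Egr1, a widely used marker of the class that was also chosen after its values were seen, measured 145 and 116 CPM in Tau and 137 and 115 CPM after UNC0642 and was not called. Leaving out Tau replicate 1, Tau replicate 2, UNC0642 replicate 1 or UNC0642 replicate 2 left 7, 4, 5 and 6 members called higher, in this order. With the sex term 3 were called higher and 1 lower, and the median was 0.02. Of the 8, Fosl2 and Egr3 kept their call with that term, and the log2 value turned negative for Fos (-0.25), Junb (-0.14), Btg2 (-0.16) and Fosb (-0.0274). Between the WT mice, the median difference of the list, male minus female, was 0.20 on the log2 scale.

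Of 23 activity-induced effectors, the secreted and synaptic products of the same programme, 8 were called higher (34.8%) and none lower, with a median of 0.17. Besides Homer1 and Arc these were Inhba, the activin subunit (log2 0.55 ± 0.12), Ptgs2, the inducible cyclooxygenase (0.36 ± 0.11), Bdnf, Nptx2, Dusp6 and Pim1. The last 4 were named after their values were seen. Of the 8, Homer1, Arc and Inhba were called without any 1 of the libraries, Ptgs2 lost its call without Tau replicate 1, and Bdnf lost it without any 1 of the 4 Tau and treated libraries. The number called higher was 5, 5, 5 and 6 without Tau replicate 1, Tau replicate 2, UNC0642 replicate 1 and UNC0642 replicate 2. With the sex term Arc, Nptx2 and Pim1 lost their call and 5 of the 8 kept it, while 7 members in all were called higher and 2 lower.

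The promoters of Homer1 and Fos are shown because each list had 8 members called in 1 direction. The motif searched was TGACG on either strand, the short site of the cAMP response element through which CREB binds many activity-induced genes. It was present in the 250 bases upstream of the start in 12 of 18 immediate early factors with a RefSeq promoter, in 8 of 15 effectors, and in 17.8% of 27025 promoters. Of the called members with a promoter, 5 of 7 factors held it and 1 of 6 effectors, Homer1. Fos was chosen after its values were seen. Its promoter lies at chr12:85473640-85473889 on the plus strand and that of Homer1 at chr13:93303507-93303756 on the plus strand (RefSeq, GRCm38.p6), with each match in capitals. The Homer1 window ends at a RefSeq transcript start 4122 bases inside the GENCODE gene.
Homer1: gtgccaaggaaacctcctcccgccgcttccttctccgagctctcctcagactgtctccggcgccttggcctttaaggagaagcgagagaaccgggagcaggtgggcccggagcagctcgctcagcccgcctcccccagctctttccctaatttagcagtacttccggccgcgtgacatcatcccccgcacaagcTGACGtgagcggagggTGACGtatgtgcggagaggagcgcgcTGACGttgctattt
Fos: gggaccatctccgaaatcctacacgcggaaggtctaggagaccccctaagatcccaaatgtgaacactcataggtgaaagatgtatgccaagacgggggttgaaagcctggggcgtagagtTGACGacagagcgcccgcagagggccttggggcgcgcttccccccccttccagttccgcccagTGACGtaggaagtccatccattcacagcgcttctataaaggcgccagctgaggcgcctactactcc
Homer1 held 3 matches within 56 bases of its start and Fos held 2, at 129 and 66 bases upstream. A match is a description of the letters in the window.

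Genes of the circadian clock were called in both directions. In the clock's loop BMAL1 (Arntl) and CLOCK activate genes through E-boxes, and the PER, CRY and REV-ERB products repress BMAL1 activity or its gene. Arntl measured 35.1 and 34.2 CPM in Tau and 54.7 and 46.1 CPM after UNC0642 (log2 0.54 ± 0.11), with both treated libraries the highest of the 6. Dbp, a PAR bZIP factor and a direct output of the clock, measured 45.9 and 40.6 CPM in Tau and 17.5 and 22.9 CPM after UNC0642. It was 2.14-fold lower (log2 -1.10 ± 0.14), although WT libraries at 35 and 39.7 CPM were near the Tau level. Nr1d1, which encodes the repressor REV-ERB alpha, measured 46.3 and 36.1 CPM in Tau and 24.3 and 23.1 CPM after treatment (log2 -0.80 ± 0.14). Ciart, which encodes the clock repressor CHRONO, measured 18.7 and 19.4 CPM in Tau and 9 and 11.6 CPM after treatment (log2 -0.88 ± 0.15). For these 3 genes the treated libraries were the lowest of the 6.

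Of 18 clock and clock output genes, 7 were called lower (38.9%) and 1 higher (5.56%), beside 4.81% and 1.97% of all protein-coding genes. The median log2 fold change was -0.15. The other 4 lower genes were Bhlhe41, Per1, Per2 and Nr1d2, named after their values were seen, as was Clock below. Per2, a core repressor of the loop, measured 20.4 and 31.8 CPM in WT, 56.5 and 61.5 CPM in Tau and 40.3 and 38.8 CPM after UNC0642 (log2 -0.58 ± 0.17). Its log2 value turned to 0.06 with the sex term. Per1 measured 39.3 and 41.1 CPM in WT, 77.8 and 56.9 CPM in Tau and 47.2 and 50.1 CPM after UNC0642. Both were lower after treatment than in untreated Tau and remained above both WT libraries. Clock, the partner of BMAL1, measured 204 and 209 CPM in Tau and 229 and 221 CPM after treatment and was not called. The number called lower was 7, 7, 6 and 7 without Tau replicate 1, Tau replicate 2, UNC0642 replicate 1 and UNC0642 replicate 2. With the sex term Dbp, Nr1d1, Ciart, Bhlhe41 and Arntl kept their call, Per1, Per2 and Nr1d2 lost theirs, and the median of the list was 0.06. Clock genes change over the day, and the time of day at which tissue was taken was not given in the sources used here, so its part was not tested.

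The E-box CACGTG, which reads the same on both strands, was present upstream of 5 of 16 clock genes with a RefSeq promoter and upstream of 6.02% of 27025 promoters. Ciart and Per1 were among them and are shown with the E-box, and in Per1 the motif TGACG, in capitals. The windows lie at chr3:95882252-95882478 on the minus strand for Ciart and chr11:69098699-69098947 on the plus strand for Per1.
Ciart: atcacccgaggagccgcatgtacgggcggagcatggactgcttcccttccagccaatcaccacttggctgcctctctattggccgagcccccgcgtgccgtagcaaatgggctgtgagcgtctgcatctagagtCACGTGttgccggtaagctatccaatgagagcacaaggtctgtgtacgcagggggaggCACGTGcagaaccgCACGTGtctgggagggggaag
Per1: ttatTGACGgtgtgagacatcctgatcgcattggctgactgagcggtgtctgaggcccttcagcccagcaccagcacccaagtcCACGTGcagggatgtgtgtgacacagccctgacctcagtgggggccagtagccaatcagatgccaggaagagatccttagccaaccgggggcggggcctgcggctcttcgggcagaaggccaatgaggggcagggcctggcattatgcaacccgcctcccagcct
Ciart held 3 E-boxes, which began 116, 58 and 44 bases upstream of its RefSeq start, and Per1 held 1, which began 166 bases upstream. The printed windows leave out bases next to the RefSeq start that a GENCODE exon of the gene covers, 23 for Ciart and 1 for Per1. The motifs did not overlap each other in these windows. The RefSeq start of Per1 used here lies 3732 bases inside the GENCODE gene, and that of Ciart lies 23 bases from the GENCODE start.

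**Figure D2:**
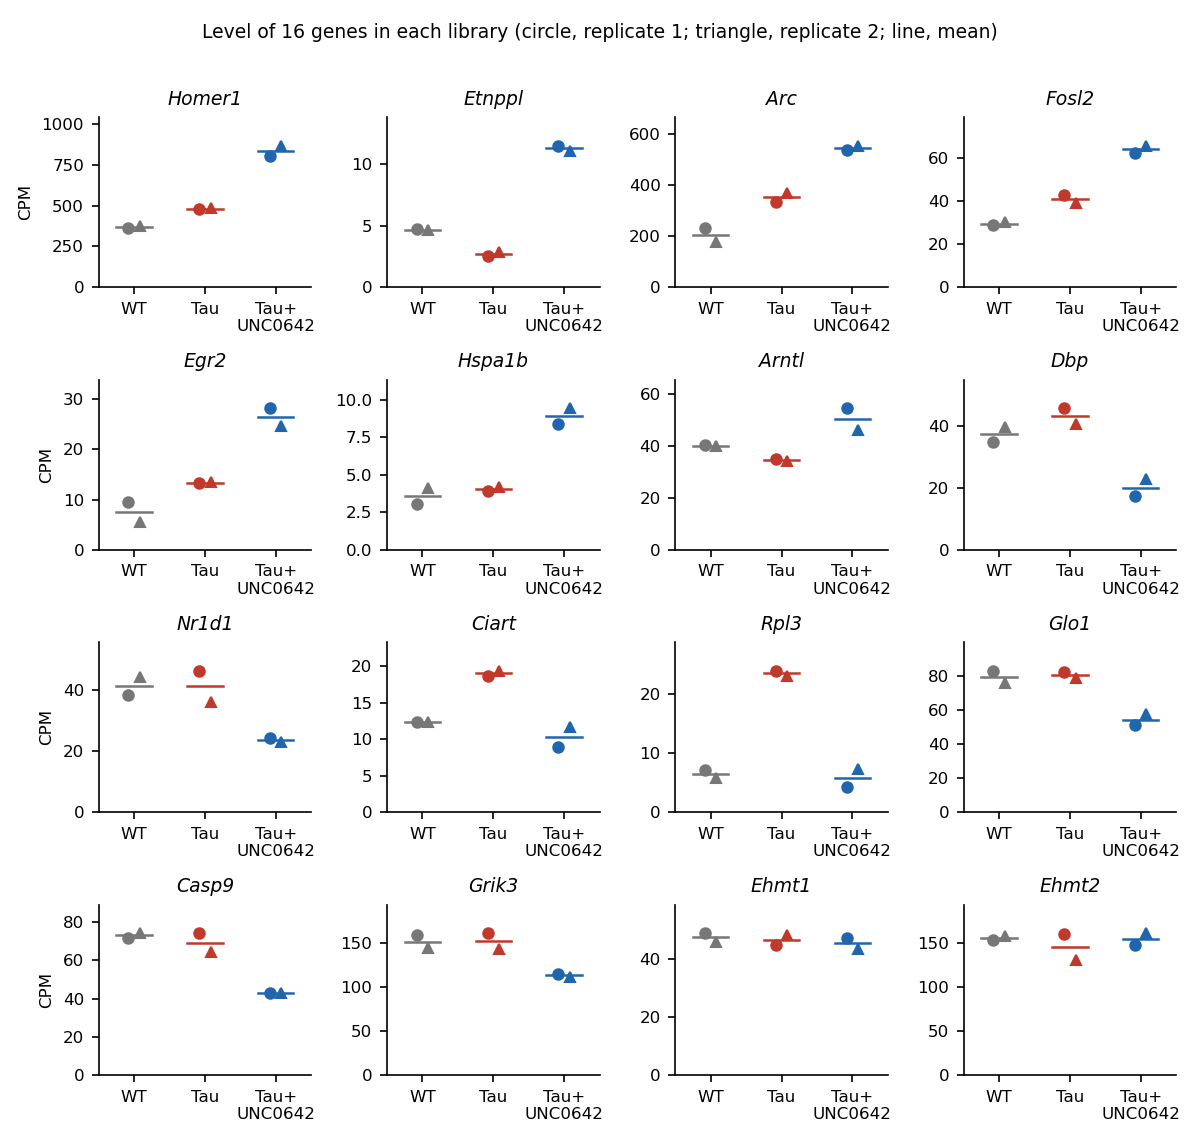
CPM (y axis, from 0) of 16 genes in the WT, Tau and UNC0642-treated Tau libraries, with replicate 1 as a circle, replicate 2 as a triangle and the mean of each group as a line. Treated libraries lie above both Tau libraries from Homer1 to Arntl and below them from Dbp to Grik3, and the groups overlap for Ehmt1 and Ehmt2.

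Other increases with the smallest p-values fell in astrocyte, secreted and stress genes. Etnppl, an astrocyte enzyme that degrades phosphoethanolamine, measured 2.54 and 2.86 CPM in Tau and 11.5 and 11 CPM after UNC0642, against 4.69 and 4.65 CPM in WT. It was 4.18-fold higher (log2 2.06 ± 0.20, adjusted p = 0.00573, edgeR's quasi-likelihood test), and the treated libraries were above WT as well. In bulk tissue, more cells of a type and more RNA per cell cannot be told apart. Dio2, the deiodinase that makes active thyroid hormone in astrocytes, measured 155 and 151 CPM in Tau and 204 and 211 CPM after treatment (log2 0.44 ± 0.08). None of 12 astrocyte markers was called by edgeR's quasi-likelihood test or had an unadjusted p under 0.05. Their median log2 fold change was -0.09, with 8 below 0 and 4 above. With the sex term 2 of these markers were called higher and 1 lower, and the median was 0.03. Their summed level was 5337 and 5367 CPM in Tau and 5531 and 5745 CPM after treatment. Their mean log2 CPM was 7.21 and 7.34 in Tau and 7.23 and 7.21 after treatment.

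Frzb, a secreted Wnt antagonist, measured 38.7 and 47.5 CPM in WT, 18.2 and 15.2 CPM in Tau and 30.2 and 33.3 CPM after UNC0642 (log2 0.92 ± 0.14). Hhipl1, a secreted relative of the Hedgehog-interacting protein, measured 30.7 and 28.5, 13.1 and 12 and 20.4 and 19.7 CPM in the same groups (log2 0.67 ± 0.12). For both genes the treated libraries lay above Tau and below WT. Among chaperones, Dnajb1, the HSP40 co-chaperone, measured 63.6 and 60.3 CPM in Tau and 89.9 and 83.5 CPM after treatment (log2 0.48 ± 0.09). Hspa1b, an inducible HSP70, measured 3.9 and 4.18 and 8.41 and 9.44 CPM (log2 1.15 ± 0.22). Of 45 cytosolic and ER chaperones, these, Hspa5 and Hspa1a (named after its values were seen) were called higher and none lower. The share called higher was 8.89%, beside 1.97% of all protein-coding genes, and the median was 0.08. The number called higher was 4, 4, 5 and 3 in the same left-out order and 8 with the sex term, where Hspa1a lost its call.

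Zfp984, a zinc finger gene on chromosome 4, had the largest log2 change among the 15 increases with the smallest p (2.86 ± 0.45), from 0.322 and 0.286 CPM in Tau to 2.37 and 2.16 CPM. Btaf1, which removes TATA-binding protein from DNA, measured 122 and 122 and 176 and 178 CPM (log2 0.53 ± 0.09). Hmgn2, a nucleosome-binding protein with many processed copies in the genome, measured 3.86 and 5.95 and 10.1 and 10.5 CPM (log2 1.08 ± 0.23), and its reads may be shared with those copies.

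Among the decreases, Rpl3, a protein of the large ribosomal subunit, measured 7.14 and 5.78 CPM in WT, 24 and 23.1 CPM in Tau and 4.38 and 7.37 CPM after UNC0642. It was 3.95-fold lower after treatment (log2 -1.98 ± 0.22, adjusted p = 0.0167, edgeR's quasi-likelihood test). The level is low for a ribosomal protein gene and near-identical processed copies exist, so the value is uncertain for this locus. Of 78 cytosolic ribosomal protein genes, 4 were called higher (5.13%) and 2 lower (2.56%), with a median of 0.01. Among all protein-coding genes the shares were 1.97% and 4.81%. Without UNC0642 replicate 2, 3 were called lower, and without Tau replicate 1, 2 were called higher.

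Casp9, the initiator caspase of the mitochondrial death pathway, measured 74.3 and 64.3 CPM in Tau and 43 and 42.7 CPM after treatment (log2 -0.69 ± 0.10). Lsp1, an actin-binding protein of leukocytes, measured 11.3 and 12.4 and 5.8 and 5.38 CPM (log2 -1.08 ± 0.18), and Cthrc1, a secreted collagen triple helix protein, measured 4.4 and 4.18 and 0.947 and 1.28 CPM (log2 -1.93 ± 0.34). All these treated libraries were below all Tau libraries. Aldh1a1, a retinaldehyde dehydrogenase, was lower by log2 -0.80 ± 0.14, and Pappa2, a protease that frees insulin-like growth factor, by -0.72 ± 0.14. Sdk2, a synaptic adhesion protein (-0.48 ± 0.09), Smim1, which carries the Vel blood group antigen (-0.77 ± 0.14), and Lrrc8d, a subunit of volume-regulated anion channels (-0.62 ± 0.12), completed the set of 15 with Dbp, Nr1d1, Ciart, Glo1, Dnah8 and Alad.

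Glo1, Dnah8 and Alad lie beside other genes that were lower. Glo1, the glyoxalase that clears methylglyoxal, and Dnah8, an axonemal dynein heavy chain, overlap at their starts on opposite strands of chromosome 17 (chr17:30584936-30626871 and chr17:30624354-30877365, GENCODE M21, GRCm38). Glo1 measured 82.5 and 78.5 CPM in Tau and 51.1 and 57.5 CPM after UNC0642 (log2 -0.57 ± 0.09), and Dnah8 3.9 and 3.84 and 0.71 and 1.15 CPM (-2.02 ± 0.33). Downstream, Glp1r, the receptor for glucagon-like peptide 1, was called lower at 0.355 and 0.176 CPM (-2.20 ± 0.65), while Btbd9 on the other side of Glo1 had a log2 change of -0.23 ± 0.08 and was not called. On chromosome 4, Alad, the second enzyme of haem synthesis, measured 43.3 and 46.9 and 30 and 30.3 CPM (-0.58 ± 0.10), and its neighbours Hdhd3 (-0.71 ± 0.16) and Bspry (-1.18 ± 0.24) were also called lower. Pole3, Prpf4, Wdr31 and Rgs3, on either side of these 3 genes, were not called. Glp1r lost its call without Tau replicate 1 or UNC0642 replicate 2 and with the sex term, and Hdhd3 and Bspry lost theirs with the sex term. The neighbours were named after their values were seen. Chromosome 4 held 6.5% of the protein-coding genes tested and 10 of the 60 called genes with the smallest p, and over all its genes 8.03% were called, within the range of 6.02% to 9.44% over the chromosomes.

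Many genes called after UNC0642 had not been called between Tau and WT, as was so for most genes. Over all autosomal genes, 9.87% were called between Tau and WT, and among genes called after UNC0642 the share was higher. Of the 725 genes called higher after UNC0642, 362 were not called between Tau and WT. Of the 778 called lower, 602 were not, which made 964 in all. By a narrower rule, with a p of at least 0.05 and a fold under 1.2 between Tau and WT, 589 remained, of which 517 were protein-coding, 122 higher and 395 lower. Both comparisons use the same Tau libraries, with opposite sign, so their calls are not independent. The levels are therefore given side by side. Eno1, the glycolytic enolase, measured 77.5 and 66.5 CPM in WT, 80.6 and 74.1 CPM in Tau and 127 and 124 CPM after UNC0642 (log2 0.70 ± 0.09). Its retrogene Eno1b measured 82.3 and 68.9, 83.5 and 83 and 59.4 and 59.5 CPM and was lower (log2 -0.49 ± 0.10). Reads of these near-identical copies may have been split between them, so both values are uncertain.

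Among the other higher genes of this kind, Syt1, the calcium sensor of fast transmitter release, measured 1538 and 1172 CPM in WT, 1263 and 1134 CPM in Tau and 1576 and 1942 CPM after UNC0642 (log2 0.55 ± 0.13). WT replicate 1 was nearly as high as UNC0642 replicate 1, and the call was lost with the sex term. Cbln2, a synapse organiser that bridges neurexins and delta receptors (log2 0.53 ± 0.12), Kitl, the ligand of the Kit receptor (0.59 ± 0.15), Plat, tissue plasminogen activator (0.52 ± 0.13), and Srek1, a splicing regulator (0.39 ± 0.09), were higher with no overlap between treated and Tau libraries. Plat lost its call with the sex term. Among the lower genes, Grik3, the GluK3 kainate receptor subunit, measured 159 and 145 CPM in WT, 162 and 144 CPM in Tau and 115 and 112 CPM after UNC0642 (log2 -0.43 ± 0.09). The 4 WT and Tau libraries all lay above the treated ones. Fam163b, a membrane protein gene of uncertain function, measured 30.9 and 34.4, 32.2 and 31.5 and 21.7 and 15.1 CPM (log2 -0.80 ± 0.16), with the same order.

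Lists of synaptic transmission genes are read here against the background of 1.97% higher and 4.81% lower calls over all protein-coding genes, which itself tilts toward lower calls. Of 23 glutamate receptor genes, Grik3 and Grik5 (-0.42 ± 0.12) were called lower and Grin2c, an NMDA receptor subunit (0.30 ± 0.11), higher (4.35% and, for lower calls, 8.7%), with a median of -0.05. Grik5 and Grin2c lost their calls with the sex term. Left out in the order used above, the libraries gave 1, 5, 2 and 2 lower and 0, 1, 1 and 0 higher calls. Of 13 GABA receptor genes only Gabrg3 was called, lower by log2 -0.27 ± 0.09, and it lost the call without Tau replicate 1 or UNC0642 replicate 2 and with the sex term. Of 81 potassium channel genes, 8 were called lower (9.88%) and 1 higher. Kcnj10, the astrocyte channel Kir4.1, measured 93.5 and 104 CPM in Tau and 73.1 and 74 CPM after treatment (log2 -0.42 ± 0.09), just below the 77.7 and 82.4 CPM of WT. Kcnip3, a calcium-binding channel partner (-0.29 ± 0.07), and Kcna6, a delayed rectifier (-0.31 ± 0.08), were also lower. The lower count was 3, 10, 7 and 7 in the same order, 4 with scaling by library size alone, and with the sex term 5 were called lower and 8 higher.

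Of 36 sodium and calcium channel genes, Cacna1i, a T-type calcium channel, was called lower (log2 -0.37 ± 0.12). Cacng6 was called higher through UNC0642 replicate 2 alone, with 0.592 and 7.1 CPM in the treated libraries and 0.429 and 0.916 CPM in Tau. Lower calls numbered 1, 9, 3 and 0 in the left-out order and 3 without either WT library, and both named genes lost their call with the sex term. Of 32 genes of vesicle release, Syt1 was higher and 5 were lower (15.6%), among them Vamp2 of the fusion machinery (-0.39 ± 0.13) and Pclo, the active zone scaffold Piccolo (-0.41 ± 0.15). Leaving out each library in order gave 2, 7, 7 and 0 lower calls, and Vamp2 and Pclo lost theirs with the sex term. Of 29 postsynaptic scaffold and adhesion genes, Homer1 was higher, and Shank1 (-0.29 ± 0.12) and Nlgn2 (-0.36 ± 0.16) were called lower with overlapping libraries. The lower count was 0, 6, 2 and 0 in the same order and 0 with the sex term.

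Among 38 monoamine and acetylcholine receptor genes, 7 were called lower (18.4%) and none higher, with a median of -0.08. Chrnb3, a nicotinic subunit, measured 3.65 and 3.66 CPM in Tau and 1.42 and 1.24 CPM after UNC0642 (log2 -1.46 ± 0.34). Chrm3, a muscarinic receptor that excites pyramidal cells, measured 94.5 and 94 and 71.8 and 73.6 CPM (log2 -0.37 ± 0.09). Hrh3, a histamine autoreceptor (-0.50 ± 0.16), and the dopamine receptor Drd1 (-0.53 ± 0.20) were also lower, and Drd1 moved with the striatal markers below. The count of lower calls was 4, 6, 3 and 6 in the left-out order, and with the sex term 2 were called lower and 2 higher, and Chrnb3, Chrm3 and Hrh3 lost their call. Slc5a7, the choline transporter of cholinergic terminals, measured 2.43 and 3.21 and 0.829 and 1.06 CPM (log2 -1.55 ± 0.36). Of all 247 solute carrier genes tested, 24 were called lower (9.72%) and 8 higher (3.24%), with lower counts of 20, 20, 14 and 16 and higher counts of 13, 3, 5 and 5 in the left-out order.

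Of 30 neuropeptide and granin genes, 6 were called lower (20%) and 2 higher, with a median of -0.13. Npy, neuropeptide Y of cortical interneurons, measured 59.4 and 59.6 CPM in WT, 69.4 and 82.3 CPM in Tau and 55.4 and 55.6 CPM after treatment (log2 -0.45 ± 0.10). Sst, somatostatin, measured 77.8 and 92.5, 129.9 and 131 and 103 and 97.8 CPM (log2 -0.37 ± 0.09). Chga, the granin chromogranin A, measured 129 and 119, 168 and 153 and 128 and 126 CPM (log2 -0.34 ± 0.08). For all 3, the treated libraries lay below Tau. Npy came below WT, Chga lay within its range and Sst stayed above it. Penk, proenkephalin, was lower by log2 -1.25 ± 0.33, with 25.4 and 60.1 CPM in Tau replicates 1 and 2. Penk, Tac1 and Pdyn are also peptides of striatal projection neurons, whose markers were high in Tau replicate 2, and Tac1 and Pdyn lost their call without that library and with the sex term. The lower count was 6, 5, 4 and 6 and the higher count 0, 2, 2 and 0 in the left-out order. Sst lost its call with the sex term.

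The targets of the compound were not called at the transcript level. Ehmt1 measured 44.9 and 48.4 CPM in Tau and 47.2 and 43.6 CPM after UNC0642 (log2 -0.04 ± 0.10), and Ehmt2 measured 159 and 131 and 147 and 161 CPM (log2 0.09 ± 0.10), with overlapping groups for both. These values concern RNA and say nothing of enzyme activity or of H3K9me2. Of 27 genes for H3K9 methyltransferases, their partners, readers and demethylases, 3 were called lower (11.1%) and none higher, with a median of -0.07. Wiz, the zinc finger partner of the EHMT complex, measured 13.8 and 10.5 CPM in Tau and 8.94 and 8.34 CPM after treatment (log2 -0.50 ± 0.17). Atf7ip, the partner of SETDB1, measured 85.5 and 86 and 72.2 and 70.2 CPM (log2 -0.27 ± 0.08). Uhrf1, which reads H3K9 methylation during DNA replication, measured 1.22 and 1.37 and 0.237 and 0.353 CPM (log2 -2.08 ± 0.54). With the sex term these 3 calls were lost and 1 other member was called higher. The log2 values with that term were -2.26 for Uhrf1, -0.30 for Wiz and -0.20 for Atf7ip. The call of Wiz was also lost without Tau replicate 1 or UNC0642 replicate 2, and that of Atf7ip without UNC0642 replicate 2.

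Repression by H3K9 methylation is known in several gene groups. Of these, clustered protocadherins and imprinted genes were called in both directions, and germline and meiotic genes gave 1 lower call. Of 52 clustered protocadherin genes, 3 were called higher (5.77%) and 3 lower (5.77%), beside 1.97% and 4.81% of all protein-coding genes. Their median was -0.10, and the libraries left out in order gave 1, 2, 1 and 1 higher and 2, 2, 8 and 1 lower calls. Of 45 germline and meiotic genes on the list, 23 passed the filter and Prdm9 alone was called (4.35%), lower by log2 -0.78 ± 0.29. That call was lost without Tau replicate 2 or UNC0642 replicate 2 and with the sex term. Of 38 imprinted genes, 3 were called higher (7.89%) and 5 lower (13.2%), beside 1.97% and 4.81% of all protein-coding genes. The list also holds long RNAs, such as Kcnq1ot1 and Meg3. Of 5370 genes of types other than protein-coding, 445 were called higher and 96 lower, so the protein-coding shares are not a full background here. Kcnq1ot1, the long RNA that silences its imprinted domain, measured 148 and 218 CPM in Tau and 308 and 257 CPM after UNC0642 (log2 0.62 ± 0.17). Meg3, the maternally expressed long RNA, measured 671 and 852 and 959 and 1075 CPM (log2 0.42 ± 0.12), and Kcnk9 was higher by 0.29 ± 0.09. For all 3 the treated libraries were above Tau and overlapped WT. The imprinted calls were 2, 3, 3 and 2 higher and 2, 3, 1 and 5 lower in the left-out order, and 5 higher and 1 lower with the sex term. Among the protocadherins, Pcdhb22 was higher by log2 0.36 ± 0.12 and Pcdhga7, whose call was lost with the sex term, lower by -0.46 ± 0.16.

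Mapt, the endogenous tau gene, measured 613 and 589 CPM in Tau and 571 and 614 CPM after UNC0642 (log2 -0.02 ± 0.11), with overlapping groups. Its log2 value was -0.38 with the sex term, and it was then called lower. Reads from the human transgene may or may not have been counted there. Of 39 genes for tau, other microtubule-associated proteins and tau kinases, Map1b (-0.27 ± 0.10) and Stmn4 (-0.29 ± 0.09) were called lower, with 2, 8, 5 and 1 in the left-out order. Both lost their call with the sex term. Of 16 tubulins, Tubb4a, an isotype of oligodendrocytes and neurons (-0.49 ± 0.11), and Tubg2, a gamma tubulin of brain (-0.46 ± 0.12), were lower, and Tuba1c was higher (0.96 ± 0.24). Tubb4a and Tuba1c lost their call with the sex term.

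Metabolic groups differed in their share of calls. Of 26 cholesterol synthesis and SREBP2 target genes, 5 were called lower, a share above the 4.81% of all protein-coding genes, and none higher, with a median of -0.14. Sqle, squalene epoxidase (-0.27 ± 0.08), Acat2 (-0.31 ± 0.10), Dhcr7, which makes cholesterol from its last precursor (-0.49 ± 0.16), and Stard4 (-0.34 ± 0.12) were among them, and the count was 5, 3, 3 and 3 in the left-out order. It was 3 with the sex term, and none of these 4 named genes kept its call. Of 34 antioxidant genes, 6 were lower (17.6%) and 2 higher (5.88%). Gpx3, the secreted glutathione peroxidase, measured 5.58 and 4.01 and 2.07 and 1.5 CPM (log2 -1.44 ± 0.30), Cat, catalase, was lower by -0.48 ± 0.12, and the metallothionein Mt2 by -0.73 ± 0.19. All the treated libraries were below Tau for these 3 genes. Lower calls numbered 6, 3, 7 and 3 in the left-out order and 5 with the sex term, where Mt2 lost its call.

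Of 79 nuclear subunits of oxidative phosphorylation, Sdhc (-0.28 ± 0.08) and Cox7a1 (-1.25 ± 0.45) were called lower (2.53%), and none was called higher. The lower count was 0, 2, 1 and 2 in the left-out order, and with the sex term it was 10, with a median of -0.14. None of 41 proteasome subunits or 38 lysosome and autophagy genes was called by edgeR's quasi-likelihood test, and none of these 79 genes had an unadjusted p under 0.05. Leaving out 1 library gave at most 1 proteasome call and 2 lysosome calls, and the sex term gave 2 and 3, all lower. Of 38 cell cycle genes, 5 were lower (13.2%) and 1 higher. Top2a, the topoisomerase of dividing cells, measured 2.29 and 3.89 CPM in Tau and 1.07 and 1.01 CPM after treatment (log2 -1.55 ± 0.43), and Mki67 4.54 and 5.1 and 2.61 and 3.13 CPM (log2 -0.74 ± 0.25). The count of lower calls was 5, 2, 3 and 3 in the left-out order and 4 with the sex term, where Top2a and Mki67 lost their call. Of 18 glucocorticoid response genes, Mt1, Mt2 and Plin4 were lower and Cdkn1a, the cell cycle inhibitor p21, was higher (0.64 ± 0.24), with lower counts of 6, 1, 2 and 3 in that order. Cdkn1a lost its call without Tau replicate 2, UNC0642 replicate 1 or UNC0642 replicate 2, and its log2 value was -0.20 with the sex term.

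Matrix, vascular and immune genes gave a mixed picture. Of 41 collagen genes, 5 were called higher (12.2%) and 1 lower (2.44%), with a median of 0.15. Col4a1, of the vascular basement membrane, measured 40.4 and 38.1 CPM in WT, 35 and 31.3 CPM in Tau and 40.3 and 45.3 CPM after UNC0642 (log2 0.37 ± 0.11), and Col3a1 measured 4.38 and 4.53, 2.86 and 2.92 and 3.97 and 5.65 CPM (log2 0.74 ± 0.26). Without UNC0642 replicate 2 or with the sex term neither was called, and the collagen count in the left-out order was 7, 3, 6 and 1 higher. Of 23 basement membrane and small proteoglycan genes, Hspg2, perlecan (0.67 ± 0.21), and Fmod, fibromodulin (0.85 ± 0.30), were higher, with 6, 0, 1 and 3 in the left-out order and 4 without either WT library, and Hspg2 lost its call with the sex term. Of 90 genes of TGF-beta, BMP and Wnt signalling, 4 were higher (4.44%), led by Frzb, and 2 lower (2.22%). The lower share was below the 4.81% of all protein-coding genes. In the left-out order 7, 3, 4 and 5 were higher.

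Of 43 interferon and antigen presentation genes, 3 were called higher (6.98%) and 1 lower (2.33%), with a median of 0.23. H2-D1, a class I antigen, measured 23.3 and 15.1 CPM in WT, 17.7 and 21.8 CPM in Tau and 30.4 and 33.3 CPM after treatment (log2 0.69 ± 0.19). H2-T23 (0.54 ± 0.17) and Ciita, the master regulator of class II genes (1.03 ± 0.33), were the others, and Stat2 was lower (-0.39 ± 0.15). The higher count was 3, 3, 8 and 3 in the left-out order and 5 without either WT library, the median was -0.13 without UNC0642 replicate 2, and with the sex term all 3 higher calls were lost. Class I genes have close paralogs, among which reads may have been split. Of 19 complement genes, C1qc was higher (0.37 ± 0.14) and Cd59a lower (-0.50 ± 0.19). C1qc lost its call without Tau replicate 2 or UNC0642 replicate 1, Cd59a lost its call without Tau replicate 1, Tau replicate 2 or UNC0642 replicate 2, and both lost it with the sex term. Of 33 splicing regulators with detained introns, Luc7l3 was higher (0.29 ± 0.10) and the median was 0.06, with 0, 8, 2 and 0 called higher in the left-out order. Luc7l3 lost its call with the sex term, where 5 members were called higher.

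**Figure D3:**
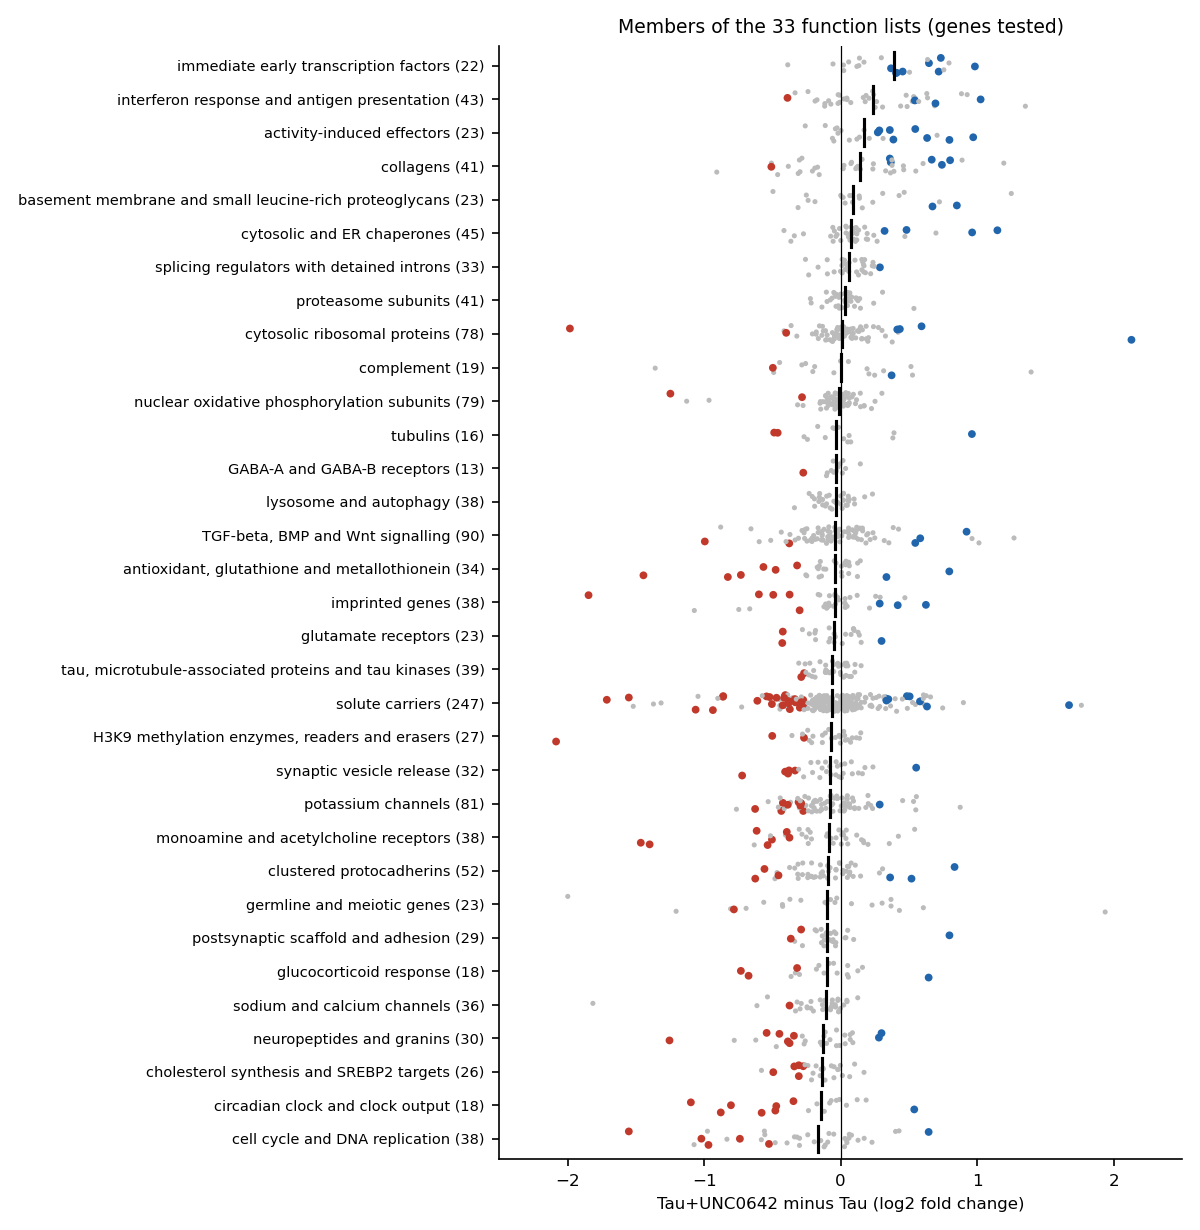
Log2 fold change of UNC0642-treated over untreated Tau libraries (x axis) for each tested member of the 33 function lists (y axis, number tested in parentheses), ordered by the median of the list (black bar). Blue points were called higher, red points lower and grey points were not called, and 2 points lie beyond the axis. Immediate early factors have the highest median (0.39) and cell cycle genes the lowest (-0.17).

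The labelled tissue was checked by cell type markers. The 10 excitatory neuron markers, which include the vesicular glutamate transporter Slc17a7, summed to 2433 to 3000.1 CPM over the 6 libraries, and the 4 choroid plexus markers tested to 3.79 to 13.2 CPM. Of 11 striatal projection neuron markers tested, 10 were called lower after UNC0642, with a median log2 change of -0.75, and their summed level was 264 and 447 CPM in Tau replicates 1 and 2 and 221 and 222 CPM in the treated libraries. Adora2a, the adenosine receptor of indirect pathway neurons, measured 1.57 and 7.33 CPM in Tau and 1.18 and 0.97 CPM after treatment. Tau replicate 2 was far above every other library for this gene, and 2 of the 11 markers were called without it, with a median of -0.28. Gng7, a G protein subunit of striatal and cortical neurons, measured 42.9 and 42.7 and 28.9 and 25 CPM (log2 -0.67 ± 0.13) and was called without any 1 library, but not with the sex term (log2 -0.34). Without Tau replicate 1, UNC0642 replicate 1 and UNC0642 replicate 2 the striatal count was 11, 6 and 6, and with the sex term it was 3.

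Oligodendrocyte markers followed the same library. Their summed level was 1559 and 4227 CPM in Tau replicates 1 and 2 and 1616 and 1714 CPM in the treated libraries, and 4 of 12 were called lower, with a median of -0.75. Without Tau replicate 2 the median was 0.08 and 1 was called, and without Tau replicate 1 all 12 were called and the median was -1.29. Without either treated library 1 was called, and with the sex term 9 were. Mobp, a myelin protein, measured 439 and 212 CPM in WT, 328 and 1038 CPM in Tau and 310.5 and 342 CPM after treatment. The Tau libraries overlapped the treated ones, and Tau replicate 2 stood far above the other 5 libraries. Sox10, the lineage factor shared with progenitors, measured 8.12 and 12.8 and 4.5 and 4.5 CPM (log2 -1.21 ± 0.30), and Fa2h, which hydroxylates myelin lipids, 7.15 and 11.6 and 3.2 and 4.94 CPM (-1.17 ± 0.31). Both were called without any 1 library and with the sex term. The part of dissection in genes called with Tau replicate 2 was not tested.

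Of the other cell types, 4 of 10 oligodendrocyte progenitor markers were lower, and the summed level was 483 and 489 CPM in Tau and 449.8 and 444 CPM after treatment. The count was 5, 2, 2 and 4 in the left-out order and 2 with the sex term. Of 10 excitatory markers, Tbr1 (-0.40 ± 0.12), Neurod2 (-0.32 ± 0.12) and Bcl11b (-0.33 ± 0.09) were lower, with counts of 1, 4, 3 and 1 in that order. None was lower with the sex term, 1 was higher and the median was 0.09. Of 10 interneuron markers Sst alone was called, while 4 were called lower with the sex term. P2ry12 and Siglech were called lower among 11 microglia markers, and both lost the call without any 1 of the 4 Tau and treated libraries. Among endothelial markers Cldn5, the tight junction claudin, measured 26.1 and 18.5 CPM in WT, 10.5 and 10.3 CPM in Tau and 13.9 and 16 CPM after UNC0642 (log2 0.53 ± 0.18). It was called higher, and lost the call without UNC0642 replicate 2 and with the sex term. Of 10 mural markers 3 were lower and 1 higher, with 2, 1, 2 and 0 lower in the left-out order and none in either direction with the sex term. Of 11 meningeal fibroblast markers Col3a1 and Fmod were higher, with a summed level of 76.2 and 56.7 CPM in Tau and 80.9 and 79.2 CPM after treatment. With the sex term 5 of these markers were called higher, and their median log2 value was 0.83, beside 0.16 without it. None of the 4 choroid plexus or 5 ependymal markers tested was called or had an unadjusted p under 0.05 by edgeR's quasi-likelihood test, while with the sex term 2 choroid plexus markers and 1 ependymal marker were called lower. The erythroid calls of Hba-a1 and Hbb-bs followed UNC0642 replicate 2, with 27.1 and 39.9 CPM of Hbb-bs in the treated libraries.

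**Figure D4:**
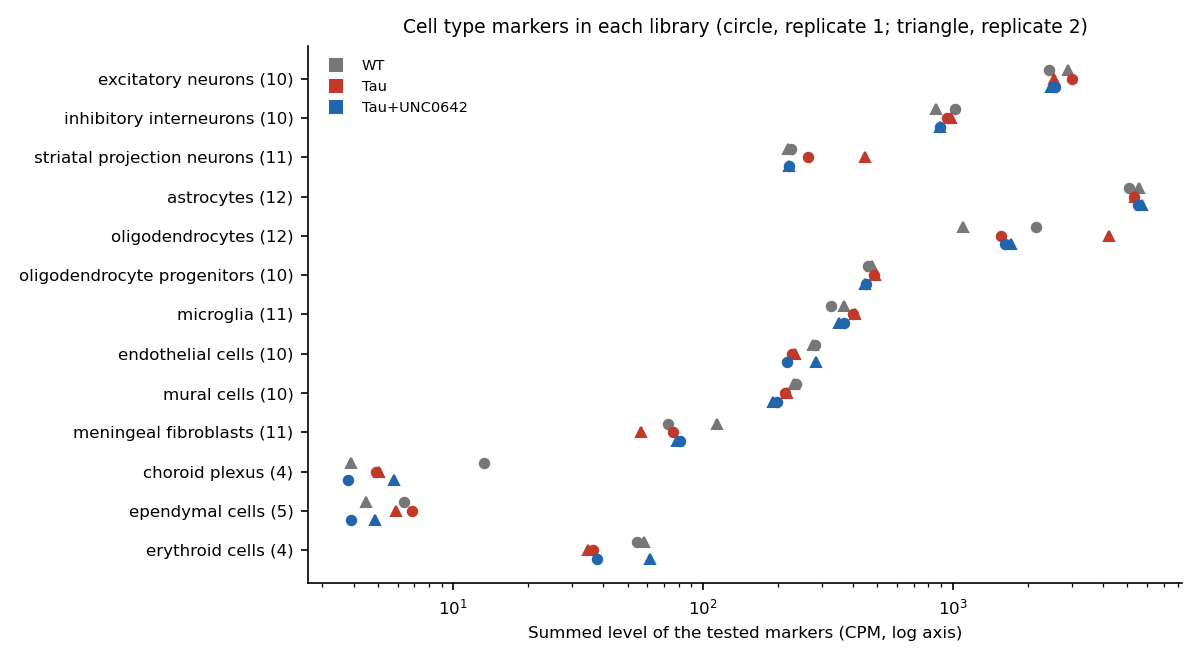
Summed level of the tested markers of 13 cell types (x axis, CPM on a log axis) in each library, with WT in grey, Tau in red and UNC0642-treated Tau in blue, replicate 1 as a circle and replicate 2 as a triangle. Tau replicate 2 stands apart at 447 CPM for striatal projection neurons and 4227 CPM for oligodendrocytes.

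Genes of annotated types other than protein-coding, which include immunoglobulin and T cell receptor segments, had more higher than lower calls. Of 5370 such genes tested, 445 were called higher and 96 lower, with a median log2 fold change of 0.18. The class labelled TEC, mostly unspliced transcripts of unsettled status in the annotation, contributed 228 higher and 5 lower calls among 1431 genes, with a median of 0.48. Sense intronic transcripts contributed 22 higher and 1 lower of 145, and antisense genes 61 and 10 of 852. The reads on TEC genes made up 0.206% and 0.278% of the counts in Tau, 0.357% and 0.315% after UNC0642 and 0.323% and 0.373% in WT. Tau replicate 1 was the lowest library, UNC0642 replicate 1 lay within the range of WT and UNC0642 replicate 2 just below it. Without Tau replicate 1, 152 of the 445 higher calls were kept, without Tau replicate 2, 295, without UNC0642 replicate 1, 189, without UNC0642 replicate 2, 257, and with the sex term 171. Many of these transcripts lie inside introns of other genes, and the strand setting used in counting was not given in the sources used here.

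Single examples had low levels. Gm45477, a TEC gene on chromosome 3, measured 3.86 and 3.52 CPM in WT, 0.965 and 1.26 CPM in Tau and 4.62 and 3.26 CPM after UNC0642 (log2 1.83 ± 0.32). The antisense gene 4933413L06Rik measured 1.22 and 1.41, 0.608 and 0.515 and 2.37 and 2.87 CPM (log2 2.20 ± 0.38), above WT in both treated libraries. Among the lower ones was Ighm, which encodes the constant region of immunoglobulin M and has a gene type of its own in the annotation. It measured 7.65 and 17.5 CPM in WT, 44.9 and 55.4 CPM in Tau and 7.1 and 12.7 CPM after treatment (log2 -2.32 ± 0.34). Both Tau libraries were well above the other 4. The processed pseudogene Gm5879 was lower by log2 -3.07 ± 0.46, from 3.43 and 2.98 to 0.355 and 0.397 CPM, and Gm10052 and Gm13443 were lower by -0.53 ± 0.09 and -0.57 ± 0.11. Pseudogene reads may come from their parent genes. Of 74 small nucleolar RNA genes, 7 were lower (9.46%) and none higher. The called snRNA genes (3 of 28), scaRNA genes (2 of 9) and rRNA genes (2 of 3) were also lower. Of 48 miRNA genes 5 were higher (10.4%) and 4 lower (8.33%). Beside these, 96 of the 5370 genes of all these other types were lower and 445 higher. Reads on rRNA genes made up 0.0568% and 0.282% of counts in WT, 0.189% and 0.284% in Tau and 0.103% and 0.102% after UNC0642. The treated libraries thus lay within the range of WT. Small RNAs are poorly captured in libraries of this kind, so these are counts of reads over their loci.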

How the data were processed

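RNA from bulk PFC was sequenced as strand-specific, ribosomal RNA-depleted libraries. The deposited values are raw counts per gene, which the authors made from trimmed reads. The submitters' processing notes name TopHat2, SAMtools, featureCounts, edgeR and mm10, and the strand setting of the counting is not given in the sources used here. Counts of all 6 libraries were fitted by group with edgeR 4.0.16 in R 4.3.3 (filterByExpr with a count minimum of 10 and total of 15, TMM scaling, quasi-likelihood test), and p-values were adjusted by Benjamini-Hochberg over all genes tested. Medians and figures were made in Python 3.11.15, and limma 3.58.1 (voom) and DESeq2 1.42.0 were alternative tools. Symbols were placed by GENCODE M21, and only chromosomes 1 to 19 are described. With 2 libraries a group, depth of 17005664 to 28972176 counts limits precision less than the number of mice does. The genes named were the 15 protein-coding genes with the smallest p called in each direction, the 10 in each direction with Tau near WT, the 5 of other types, and up to 4 members of each list with the smallest p. The script was tested on simulated data. Members and lists were chosen with earlier results of these data known. Alternatives covered scaling, filters, tools, a replicate block, a sex term and each library left out.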

Additional observations from a re-analysis of the deposited data

How the results depend on the processing

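The 725 higher, 778 lower and 3 adjusted calls were recomputed under each alternative. Library size alone gave 859 higher, 611 lower and 5 adjusted calls. Without a filter there were 1129 higher, 1127 lower and 453 adjusted calls, DESeq2's Wald test gave 470 higher and 66 adjusted, and a fold of at least 1.5 gave 298 lower. Protein-coding genes alone gave 280 higher. Adjusted calls by edgeR's quasi-likelihood test numbered 18 in the Tau and treated libraries alone and 34 with the sex term. Leaving out 1 library gave 516 to 870 higher, 595 to 813 lower and 0 to 20 adjusted calls. A replicate block gave 654 higher, 690 lower and 3 adjusted calls, and the block in the Tau and treated libraries alone, chosen after seeing the data, gave 78 adjusted calls. The numbers mark different mice, and deviations of same-numbered Tau and treated libraries had a correlation of -0.0033, so they were not taken as pairs. The direction turned with the sex term for Fosb (-0.0274), Cdkn1a (-0.20), Stard4 (0.00201) and P2ry12 (0.17), and without UNC0642 replicate 2 for Cacng6 (-0.13) and Hba-a1 (-0.11), whose values with 1 library left out ran up to 3.46 and 1.78, and the cause was not tested. Over all alternatives for the genes named by rule, 3008 values stayed on their side of the threshold. Among these, values of uncalled genes could turn direction, such as Ehmt1 (-0.096 to 0.021 with 1 library left out). A further 276 values lost the call and 86 gained one, all with direction kept. The 6 values listed above, of called genes, turned direction. Another 2, of uncalled genes, turned direction and gained a call with the sex term, Prnp (-0.82) and Aqp1 (-3.93). A fold under about 1.2 and genes near 3 counts are beyond what these depths and 2 mice a group can resolve.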
